A study of Rattus norvegicus and Mus musculus with 9 samples.

Results

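Mouse and rat embryonic stem (ES) cells were set side by side by the rank of each gene within its own array. The comparison took in 6 of the 9 arrays of the series, 3 from mouse ES cells and 3 from rat ES cells. It covered the 12114 gene symbols that both array designs carry, out of 19938 named genes on the mouse array and 14506 on the rat array. The mouse ES cells were of strain C57/BL6 and were grown with LIF (leukaemia inhibitory factor) in GMEM containing 10% FBS, and their feeder cells were taken away before RNA was isolated. The rat ES cells were of strain DA and were kept in 3I medium, and the labels do not say whether feeder cells were removed from them. Embryonic fibroblasts of DA rats, grown in GMEM with 10% FBS and measured on 3 arrays of the rat design, served only as a background reference. The labels give no passage number, clone or age. Nothing in them says that the 3 samples of a group were grown apart, so every spread given here may be technical. Species, array design, strain and culture medium all changed together between the ES groups and cannot be told apart.

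ES cells are grown from the inner cell mass of the early embryo and can give rise to every tissue of the body. In mouse, LIF and serum hold the cells in self-renewal while FGF and ERK signalling pushes them toward differentiation. Media of the 3I type contain inhibitors of the FGF receptor, of MEK (the kinase above ERK) and of GSK3, the kinase that marks beta-catenin for destruction in the Wnt pathway. Naive pluripotency is the state of the pre-implantation epiblast, and primed pluripotency that of the epiblast after implantation.

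The tables come from different array designs, with array medians of 4.75 to 4.77 in mouse and 5.71 to 5.74 in rat on the log2 scale. They were treated as normalized separately, so no difference in signal between mouse and rat is given. Instead, each gene has a percentile on each array, which is its place among the 12114 shared genes from 0 (lowest signal) to 100 (highest). A difference between groups is given in points, as the mean percentile of the 3 mouse arrays minus that of the 3 rat arrays. A gene was counted as ranked higher in a group when the means lay at least 25 points apart, the 3 mouse and 3 rat percentiles did not overlap, and the higher mean was at or above the 50th percentile. A gene was counted as ranked alike when the means lay within 5 points.

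The mouse table stood apart from the rat table in the grain of its values. The mouse arrays held 6105 to 6943 different values for the 12114 genes, against 11948 to 11965 on the rat ES arrays. On the mouse arrays, 6367 genes (52.6%) had the same value on all 3, and 4863 genes (40.1%) carried the same 3 values as at least 1 other gene, in sets of up to 78 genes. No shared gene had the same value on all 3 arrays of either rat group. For this reason no SD is given over the mouse arrays. Mouse percentiles differed over the 3 arrays by a median of 0.74 points, and rat ES percentiles by 2.46 points. Of the 535 genes counted toward mouse ES cells, 280 (52.3%) had a single mouse value, as did 347 of the 609 (57.0%) counted toward rat ES cells. When percentiles were taken again among only the genes with at least 2 different mouse values, the counts were 267 and 296. Named genes ranked higher in a group on a single mouse value are marked as such.

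Markers of the labelled cell types were checked first. All 6 shared ES cell markers, among them Pou5f1, Sox2 and Nanog, ranked at or above the 75th percentile in both ES groups, with medians of 96.7 in mouse and 95.5 in rat, against 11.8 in rat fibroblasts. The 14 fibroblast and feeder markers had medians of 39.8 in mouse ES cells (range 3.0 to 91.0) and 36.8 in rat ES cells (range 5.6 to 95.5), against 97.2 in fibroblasts. At or above the 75th percentile were 1 of these markers in mouse ES cells, 4 in rat ES cells and 11 in fibroblasts. The medians of both marker sets thus followed the labels. Single fibroblast and feeder markers were also high in the ES groups, 4 in rat and 1 in mouse.

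Over all shared genes, the rank order of mouse ES cells was closer to that of rat ES cells than to that of rat fibroblasts. Spearman's rho across the 12114 genes averaged 0.834 over the 9 pairs of a mouse and a rat ES array (range 0.826 to 0.839), against 0.749 (0.744 to 0.752) for mouse ES and rat fibroblast arrays. Genes are not independent replicates, so these coefficients are descriptions. The difference of 0.084 had an exact two-sided permutation p = 0.1 over the 20 assignments of the 6 rat arrays, which is the smallest value that design allows. All 9 pairs of ES arrays lay above every pair of a mouse ES and a rat fibroblast array. Rat ES cells and rat fibroblasts, measured on the same array design, had a rho of 0.837 (0.833 to 0.842), close to that of the ES cells across species and designs. In bulk RNA, fewer cells of a type and less RNA per cell cannot be told apart.

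Percentiles of a gene differed between mouse and rat ES cells by a median of 8.63 points, against 5.12 points between the rat groups and 10.63 points between mouse ES cells and rat fibroblasts. The 3 mouse and 3 rat ES percentiles did not overlap for 10585 genes (87.4%), so a lack of overlap alone says little about a gene. Of all shared genes, 5449 lay at least 10 points apart, 1440 at least 25 points, 151 at least 50 points and 16 at least 75 points. By the counting rule, 535 genes (4.42%) ranked higher in mouse ES cells and 609 (5.03%) higher in rat ES cells, 9.44% in either direction, while 3998 (33.0%) ranked alike. The split depends on the genes that percentiles are taken among. With percentiles among all named genes of each table, 718 genes ranked higher in mouse ES cells and 390 in rat ES cells, and the median difference of all shared genes moved from 0.3 to 3.0 points. Just under the limit of 25 points, at 24 to 25, lay 53 further genes on each side, and just over it, at 25 to 26, lay 44 toward mouse and 43 toward rat.

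**Figure D1:**
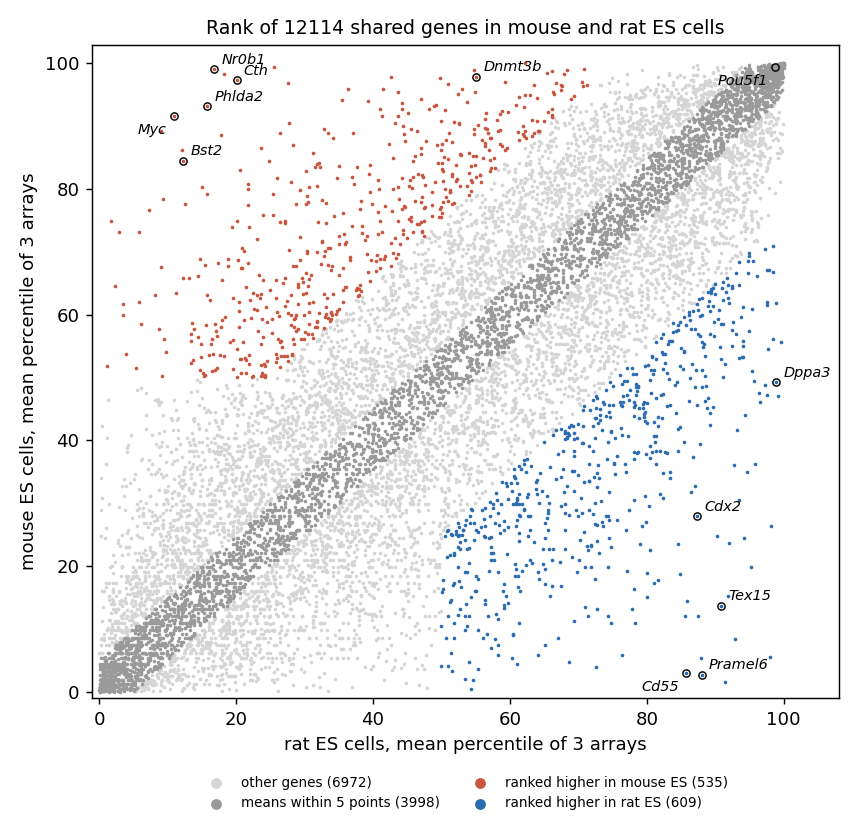
Mean percentile of each of the 12114 shared genes over the 3 mouse ES arrays (vertical axis) and the 3 rat ES arrays (horizontal axis). Each point is a gene, coloured by whether it was counted as ranked higher in mouse ES cells (535), higher in rat ES cells (609), alike (3998) or none of these. Genes named beside circles include Nr0b1 and Myc at the upper left, Pramel6 and Cd55 at the lower right and Pou5f1 at the upper right.

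The most highly ranked genes were largely shared. In rat ES cells 1204 genes had a mean in the top 10% and in mouse ES cells 1206, and 734 were in both, which is 61.0% of the rat set and 60.9% of the mouse set. Of the mouse set, 46.8% was in the top 10% of rat fibroblasts. No gene was in the top 10% in mouse and the bottom 10% in rat ES cells, and 3 genes, H3f3a, Selenok and Tmc1, were the other way round. The 10 genes with the highest rank in both ES groups were Eef1a1 (a translation elongation factor), the ribosomal protein genes Rps2, Rpl28, Rps6 and Rpl10, Hspa8 (a heat shock cognate chaperone), Actb (cytoplasmic actin), Rpph1 (the RNA of RNase P), Ppia (cyclophilin A) and Aldoa (the glycolytic aldolase).

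Pou5f1, Sox2 and Nanog, the best known of the core pluripotency regulators, ranked alike in both species. Of the 18 shared members, 7 ranked alike, 2 ranked higher in mouse ES cells and none higher in rat ES cells. Over all shared genes the shares were 33.0%, 4.42% and 5.03%. The median difference of the list was 3.7 points, 7.1 among genes with at least 2 different mouse values and 16.0 among those with 3. Pou5f1, which encodes the transcription factor Oct4, was at percentiles of 99.5, 99.5 and 99.6 on the mouse arrays and 98.8, 98.7 and 98.5 on the rat ES arrays. Sox2, the partner of Oct4 on DNA, was at 97.0, 96.5 and 97.3 in mouse and 97.1, 97.5 and 97.6 in rat, with overlapping arrays. Nanog, a homeodomain factor that stabilizes self-renewal, was at 95.8, 95.3 and 95.7 in mouse and 98.7, 98.4 and 98.4 in rat. The adhesion gene Epcam, the corepressor gene Trim28, the methyltransferase cofactor gene Dnmt3l and the zinc finger gene Zscan10 were the other 4 that ranked alike, by 0.5, 0.1, 0.7 and 4.5 points.

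Both genes that ranked higher in mouse ES cells lay in the middle of the range in rat ES cells. Phc1, a subunit of Polycomb repressive complex 1, was at 98.7, 98.8 and 98.7 in mouse and 66.1, 67.8 and 64.8 in rat ES cells, 32.6 points apart. Podxl, a sialomucin of the cell surface, was at 80.9, 82.3 and 80.6 in mouse, from a single mouse value, and at 54.0, 48.6 and 48.3 in rat. Smaller differences toward mouse, below the counting limit, were those of the growth factor genes Fgf4 (16.6 points) and Gdf3 (13.9) and of the RNA-binding gene Lin28a (12.8). Within the rat table, the difference for Phc1 of ES cells over fibroblasts was 0.50 on the log2 scale, below the 2-fold limit (limma adjusted p = 0.0004126). Phc1 was singled out on the same rat ES arrays. Pou5f1 was higher in ES cells by 7.04 (limma adjusted p = 4.973e-08).

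The naive factors were split. Of 20 shared members, 4 ranked higher in mouse ES cells, 3 higher in rat ES cells and 3 alike. All shared genes had shares of 4.42%, 5.03% and 33.0%. The median absolute difference of the list was 17.7 points, against 8.6 for all shared genes. Nr0b1, an orphan nuclear receptor (Dax1) of the ES cell network, was at 99.2, 99.1 and 99.1 in mouse but at 16.2, 16.9 and 17.1 in rat ES cells. This was the gene furthest toward mouse of all 12114, at 82.4 points. In rat fibroblasts its probe set was at 20.6, 17.3 and 24.2, and the log2 difference of rat ES cells from fibroblasts was -0.30 (limma adjusted p = 0.05287). Myc, the growth-promoting transcription factor, was at 91.7, 91.4 and 91.6 in mouse and at 4.8, 8.7 and 19 in rat ES cells. Fibroblasts had Myc at 63.8, 62.7 and 62.7, and its log2 difference of rat ES cells from fibroblasts was -3.31 (limma adjusted p = 6.185e-06). Nr0b1 and Myc were singled out on the same rat ES arrays that limma used. Nr5a2, a nuclear receptor that acts on Pou5f1, lay 46.6 points toward mouse and Fbxo15, an F-box gene used as an ES cell marker, 30.4 points.

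The 3 naive factors ranked higher in rat ES cells were Dppa3, Tbx3 and Lifr. Dppa3 (Stella), a maternal factor that protects DNA methylation marks in the zygote, was at 45.9, 51.1 and 50.9 in mouse and 99.0, 98.9 and 98.7 in rat ES cells, a difference of -49.6 points. Tbx3, a T-box factor that sustains self-renewal, was at 66.7, 68.0 and 66.6 in mouse (a single mouse value) and 97.9, 97.9 and 97.8 in rat. Lifr, the LIF receptor, was at 70.8, 69.8 and 72.6 in mouse and 98.5, 98.5 and 98.4 in rat. For all 3, the lack of overlap between the arrays of the species was fixed by the counting rule. Below the counting limit and in the same direction were the Krüppel-like factor Klf4 (-20.1 points), the transcription factor Tfcp2l1 (-11.2), the LIF coreceptor Il6st (-15.5) and Stat3 (-13.3), which carries the LIF signal to the nucleus. Esrrb, an orphan receptor downstream of GSK3 inhibition, Klf5 and the X-linked zinc finger gene Zfx ranked alike.

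Markers of the primed state were counted in 1 direction. Of 15 shared members, 6 ranked higher in mouse ES cells, none higher in rat ES cells and 4 alike, against 4.42%, 5.03% and 33.0% of all shared genes. The median difference was 4.5 points, 18.8 among genes with at least 2 different mouse values and 31.9 among those with 3. The de novo DNA methyltransferase Dnmt3b was at 97.8, 97.9 and 97.9 in mouse and 62.6, 51.8 and 50.9 in rat ES cells, and its partner Dnmt3a was at 94.9, 95.1 and 95.1 against 62.7, 61.2 and 62.8. Fgf5, the ligand that appears as the epiblast matures, was at 56.2, 56.8 and 56.1 in mouse and 12.2, 15.2 and 15.9 in rat, where fibroblasts also lay low at 18.8, 23.5 and 19.9. The mouse levels of Fgf5 and of the POU factor Pou3f1 (34.5 points toward mouse) each came from a single mouse value. The Nodal antagonist Lefty2 lay 31.7 points and the Wnt antagonist Sfrp2 26.6 points toward mouse. Nodal itself and Lefty1 ranked alike, near the 90th percentile in both species, and the zinc finger gene Zic2 lay 22.3 points toward rat, below the limit.

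**Figure D2:**
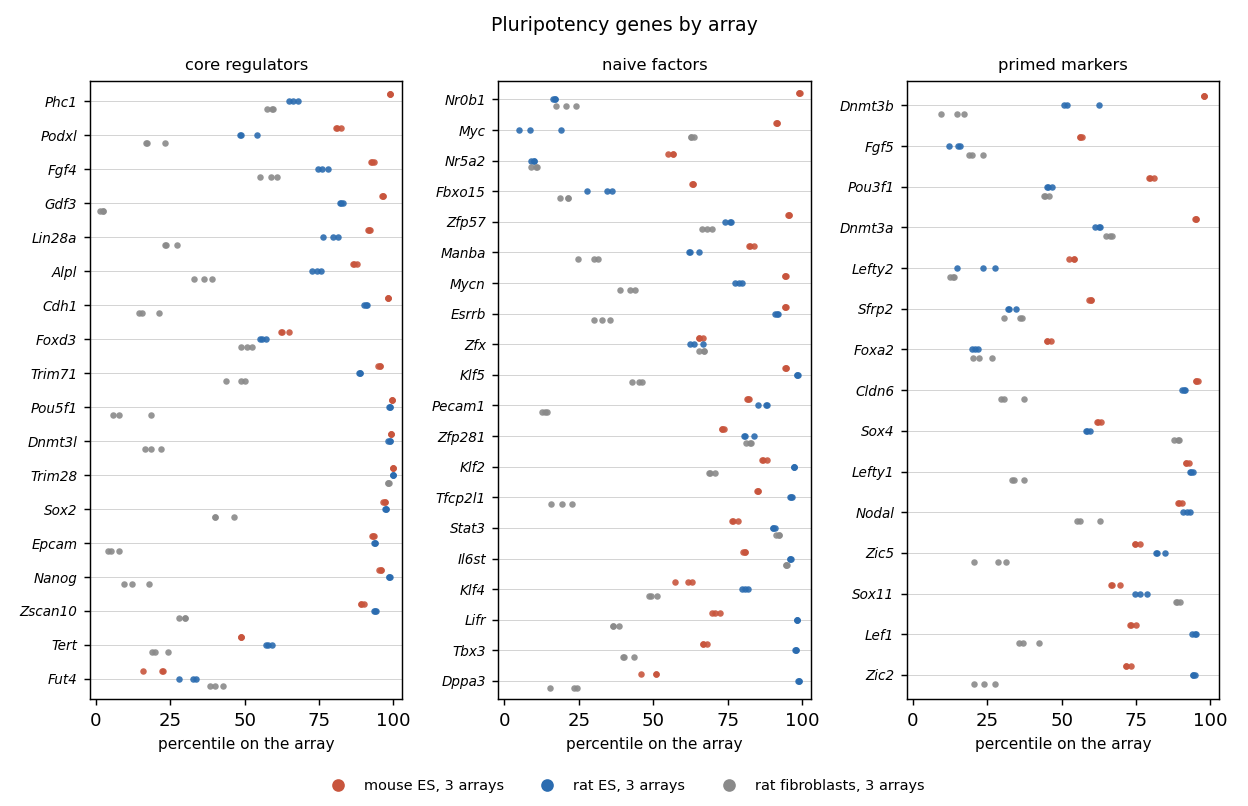
Percentile on each array of every shared core pluripotency regulator (18), naive factor (20) and primed marker (15), with the 3 mouse ES arrays, the 3 rat ES arrays and the 3 rat fibroblast arrays as points of different colour. Genes run from the largest difference toward mouse at the top to the largest toward rat at the bottom. Pou5f1, Sox2 and Nanog sit above the 95th percentile in both ES groups, while Nr0b1, Myc and Dppa3 lie far apart.

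Targets of ERK signalling, the pathway that 3I media block, ranked toward mouse ES cells. ERK switches on immediate early transcription factors such as Egr1 and Fos through the serum response factor Srf, and also genes that feed back on the pathway, such as Dusp and Spry genes. Of 28 shared members of this list, 6 ranked higher in mouse ES cells, 1 higher in rat ES cells and 3 alike. Shares of all shared genes were 4.42%, 5.03% and 33.0%, and the list median was 15.1 points toward mouse. The mouse mean was the higher in 71.4% of members, against 51.4% of all shared genes. The list median was positive under each alternative tried, between 14.9 and 31.6 points. The median percentile of the members was 69.9 in mouse ES cells, 58.8 in rat ES cells and 58.4 in rat fibroblasts. Those fibroblasts, another cell type, were grown in GMEM with FBS. Whether the inhibitors of 3I medium gave the ranks of this list was not tested.

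Rat promoter sequences of members from both signalling lists are shown with the motifs through which such signals are known to act on DNA. They are the 250 bases before the start of each gene, from RefSeq on build GRCr8, written 5′ to 3′ on the strand of the gene. Phlda2, at chr1:208127242-208127491 on the minus strand, has its CArG box, the site of Srf, in capitals. Dusp1, at chr10:17184603-17184852 on the plus strand, has the cyclic AMP response element TGACGTCA in capitals. Axin2, at chr10:94398535-94398784 on the plus strand, has 2 copies of CTTTGA, the core of the site of the TCF and LEF factors, in capitals.
Phlda2: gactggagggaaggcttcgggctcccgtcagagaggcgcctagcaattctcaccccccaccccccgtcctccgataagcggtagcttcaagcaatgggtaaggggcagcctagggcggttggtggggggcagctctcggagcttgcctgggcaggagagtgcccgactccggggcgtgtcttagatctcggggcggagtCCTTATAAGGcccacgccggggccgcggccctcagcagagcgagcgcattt
Dusp1: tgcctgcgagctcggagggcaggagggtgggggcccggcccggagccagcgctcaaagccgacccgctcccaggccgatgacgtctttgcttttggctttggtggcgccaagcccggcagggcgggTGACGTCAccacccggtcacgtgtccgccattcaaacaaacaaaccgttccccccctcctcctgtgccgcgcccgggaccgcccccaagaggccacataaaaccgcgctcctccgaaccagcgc
Axin2: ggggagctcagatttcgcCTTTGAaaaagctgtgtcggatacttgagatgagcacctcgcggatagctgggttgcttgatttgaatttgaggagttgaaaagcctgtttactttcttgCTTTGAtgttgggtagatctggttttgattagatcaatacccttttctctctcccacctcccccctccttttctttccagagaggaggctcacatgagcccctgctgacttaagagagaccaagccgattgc

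These motifs were searched on both strands of windows of 300 bases, which run from 250 before to 50 after the start. A CArG box was found in 6 of the 20 ERK list promoters matched by symbol (30.0%), those of Egr1, Egr2, Dusp5, Etv1, Phlda2 and Srf, and in 1.64% of all 27457 promoters. TGACGTCA was found in those of Ier2 and Dusp1 and in 1.91% of all promoters. Among all genes counted as ranked higher in mouse ES cells the CArG box was found in 2.28% of 438 promoters, and among those higher in rat ES cells in 1.65% of 486. In the same order TGACGTCA was found in 2.28% and 3.91%, and CTTTGA in 14.8% and 11.7%. Among the 9973 promoters of all shared genes, the shares were 1.33% for the CArG box, 2.72% for TGACGTCA and 12.9% for CTTTGA. A match describes the letters of the window and is not a measured binding site. The promoters with a CArG box belong to genes at both ends of the list, since Phlda2 and Egr1 ranked toward mouse while Dusp5 and Etv1 had higher means in rat.

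Phlda2 had the largest difference in the list. This imprinted gene, which restrains growth of the placenta, was at 93.1, 93.7 and 92.8 in mouse and 20.7, 11.4 and 15.2 in rat ES cells, 77.4 points apart, and was as low in rat fibroblasts, at 20.7, 15.9 and 18.9. Dusp1, a phosphatase that inactivates MAP kinases, was at 96.8, 96.7 and 96.9 in mouse and 44.4, 52.5 and 56.0 in rat ES cells. Unlike Phlda2, Dusp1 was high in rat fibroblasts, at 96.9, 96.3 and 96.4. Its log2 difference of rat ES cells from fibroblasts was -3.66 (limma adjusted p = 6.207e-07), though Dusp1 was singled out on the same rat ES arrays. Rat ES cells also lay below both other groups for the cyclin gene Ccnd1, at 92.4, 92.8 and 92.0 in mouse, 59.7, 56.4 and 60.5 in rat ES cells and 92.8, 92.9 and 93.3 in fibroblasts. The same order held for the immediate early gene Egr1, at 59.6, 60.4 and 59.4 in mouse (a single mouse value), 35.0, 20.3 and 23.4 in rat ES cells and 92.2, 92.9 and 92.0 in fibroblasts. Ier2, another immediate early gene, was at 86.0, 86.6 and 86.9 in mouse, 44.8, 48.2 and 47.9 in rat ES cells and 53.5, 54.2 and 55.7 in fibroblasts, which thus lay nearer to rat ES cells. Jun lay 31.2 points toward mouse.

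Feedback genes of the pathway mostly stayed below the counting limit. Spry2, an inhibitor of receptor signalling, was at 94.6, 94.4 and 95.1 in mouse and 78.0, 79.2 and 78.1 in rat ES cells, and Dusp6, the phosphatase of ERK, at 95.3 on each mouse array and at 77.8, 74.1 and 74.1 in rat. Etv5 and Etv4, ETS factors induced by FGF, lay 8.6 and 8.5 points toward mouse. Dusp4 and Dusp5 ran the other way, at -12.4 and -16.8 points. The only member counted toward rat was the stress and immediate early gene Ier3, at 35.4, 36.8 and 35.7 in mouse and 25.4 points higher in rat ES cells, with fibroblasts at 89.7, 89.9 and 89.9.

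Targets of Wnt and beta-catenin, the pathway that GSK3 inhibition opens, were split. Of 16 shared members, 3 ranked higher in rat ES cells, 1 higher in mouse ES cells and 2 alike. Among all shared genes, 5.03%, 4.42% and 33.0% were counted so. The list median was 4.8 points toward mouse, between 2.7 and 8.4 under the alternatives tried. Axin2, the negative-feedback scaffold of the pathway, was at 46.1, 46.3 and 46.2 in mouse and 73.0, 76.4 and 78.9 in rat ES cells, against 43.1, 44.5 and 42.3 in rat fibroblasts. Cdx2, a caudal homeobox factor, was at 28.1, 27.5 and 28.2 in mouse and 86.7, 87.4 and 88.3 in rat ES cells, -59.5 points. Rnf43, a ubiquitin ligase that removes Wnt receptors, lay at -34.3 points. Within the rat table all 3 were higher in ES cells than in fibroblasts, by 1.98, 3.80 and 1.79 on the log2 scale (limma adjusted p = 6.773e-07, 1.573e-08 and 2.545e-05), though the 3 genes were singled out on the same rat ES arrays. Axin2, Cdx2 and Rnf43 each had a single mouse value that other genes share.

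Most other Wnt targets were not counted in either direction. Lef1, the nuclear effector, with a single mouse value, was at 94.8, 93.9 and 95 in rat ES cells and 73.4, 74.9 and 73.1 in mouse, -20.7 points and below the limit. Notum, Dkk1 and Lgr5 lay 25.9, 23.7 and 13.1 points toward mouse, and none reached the 50th percentile in either species. CTTTGA was found in 15.9% of all promoters and in 12.9% of those of shared genes. Among the 12 list promoters matched it was found in 4 (33.3%), those of Axin2, Nkd1, Dkk1 and Cd44. Of these 4 genes only Axin2 was counted as ranked higher in a group.

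**Figure D3:**
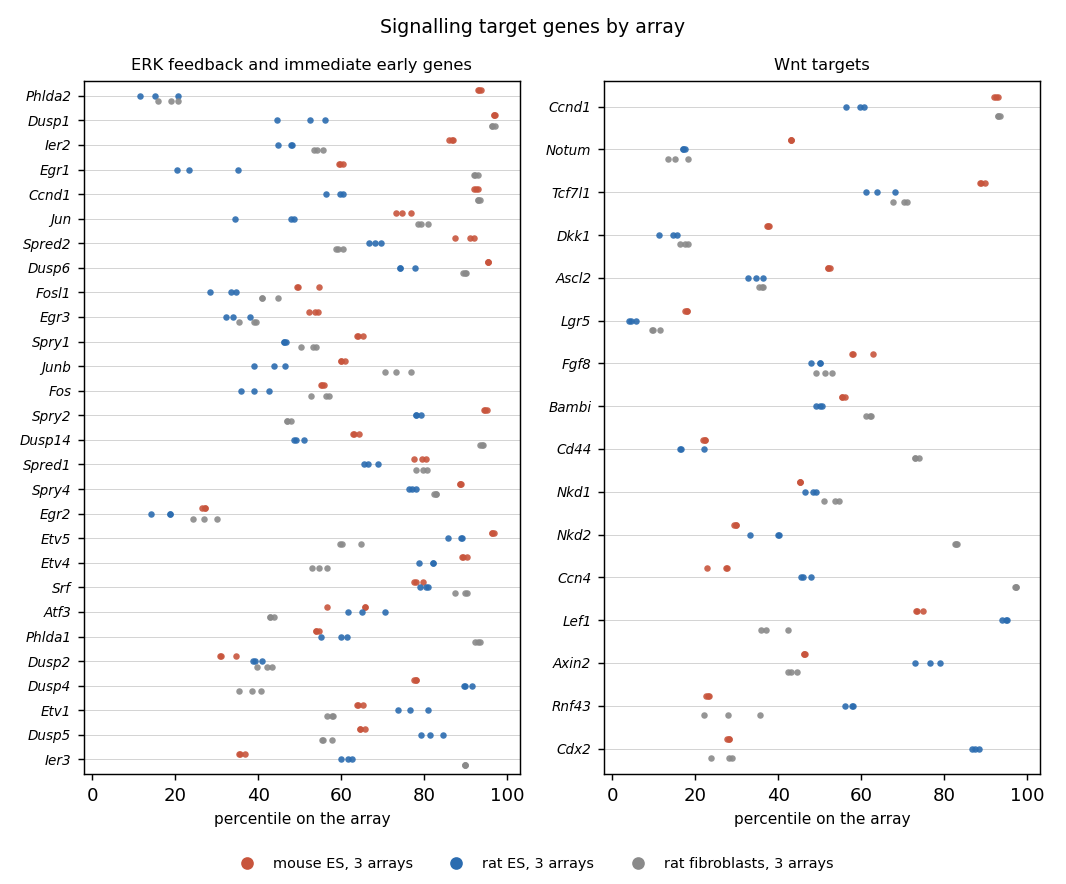
Percentile on each array of the 28 ERK feedback and immediate early genes and the 16 Wnt targets, with points for the 3 mouse ES, 3 rat ES and 3 rat fibroblast arrays. Genes run from the largest difference toward mouse at the top to the largest toward rat at the bottom. Phlda2 and Dusp1 lead the first panel, and Cdx2, Rnf43 and Axin2 end the second.

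Of 19 shared LIF, JAK and STAT3 genes, 6 ranked alike, close to the 33.0% of all shared genes. Of the rest, 1 ranked higher in mouse ES cells and 2 higher in rat ES cells, against 4.42% and 5.03% of all shared genes. Jak2, a kinase bound to cytokine receptors, was at 16.9, 14.9 and 17.1 in mouse and 78.4, 79.3 and 76.7 in rat ES cells. Its relative Jak1 was at 79.8, 79.4 and 79.6 in mouse and 75.1, 77.6 and 77.3 in rat. These 2 kinases of the same receptors thus stood far apart in mouse and close together in rat ES cells. The STAT3 targets Socs3 and Pim1 lay within 5 points. Cntfr, the receptor of ciliary neurotrophic factor, lay 25.2 points toward mouse from a single mouse value.

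The 12 genes furthest toward mouse were Nr0b1, Myc, Slc27a2, Pla2g1b, Phlda2, Cth, Slbp, Sinhcaf, Prl2a1, Bst2, Mapkapk3 and Pxdn, from 82.4 down to 70.3 points. Pla2g1b, a secreted phospholipase A2 of the pancreas, was at 98.3, 98.5 and 98.1 in mouse and 18.5, 15.7 and 20.5 in rat ES cells. Slc27a2, a fatty acid transporter and acyl-CoA synthetase, was at 89.2, 88.9 and 90.0 against 8.1, 9.9 and 9.3. Sinhcaf, a subunit of the Sin3 histone deacetylase complex, was at 99.5, 99.3 and 99.5 against 27.1, 23.3 and 26.0. The choice of these 3 genes fixed that the arrays of the species lay far apart. Their rat probe sets were about as low in fibroblasts as in rat ES cells. Slbp, which binds the stem-loop of histone mRNAs and is needed by any dividing cell, was at 86.6, 86.9 and 85.4 in mouse, 13.5, 11.7 and 11.2 in rat ES cells and 11.4, 11.3 and 11.0 in rat fibroblasts. The interferon-induced virus restriction gene Bst2 (tetherin) was at 84.5, 84.6 and 84.3 in mouse and 17.5, 8.4 and 11.0 in rat ES cells. Prl2a1 belongs to the placental prolactin family, whose near-identical copies make its probe sets uncertain. Mapkapk3 and Pxdn each had a single mouse value.

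The 12 genes furthest toward rat were H3f3a, Selenok, Pramel6, Tmc1, Cd55, Olr1, Tex15, Cd59b, Stbd1, Htr5b, Car6 and Ablim1, from -92.5 to -71.7 points. H3f3a, which encodes histone H3.3, was at 5.9, 5.2 and 5.4 in mouse and 98.1, 98.0 and 97.9 in rat ES cells, but a mouse probe set that lists H3f3a together with other symbols ranked at 95.6. Selenok, a selenoprotein of the endoplasmic reticulum, was at 1.3, 1.7 and 1.3 in mouse, and its mouse probe set shared with other symbols ranked at 42.1. Both genes therefore hang on which mouse probe set is used. Pramel6, a PRAME-like gene of the early embryo and a member of a multicopy family, was at 2.7, 2.6 and 2.7 in mouse and 88.4, 88.0 and 87.5 in rat ES cells. Tex15, which male germ cells need to silence transposons, was at 13.9, 13.5 and 13.9 against 92.2, 91.1 and 89.5. Cd55 and Cd59b, which protect cells from complement, were at 2.8, 3.3 and 2.9 against 86.5, 85.4 and 85.4 and at 15.5, 14.7 and 15.6 against 91.5, 92.0 and 91.9. Pramel6, Cd59b and H3f3a have close copies in the genome that could share signal, so their ranks are uncertain. Of these 12 genes, Pramel6, Olr1, Tex15, Stbd1, Htr5b, Car6 and Ablim1 had a single mouse value that other genes share.

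**Figure D4:**
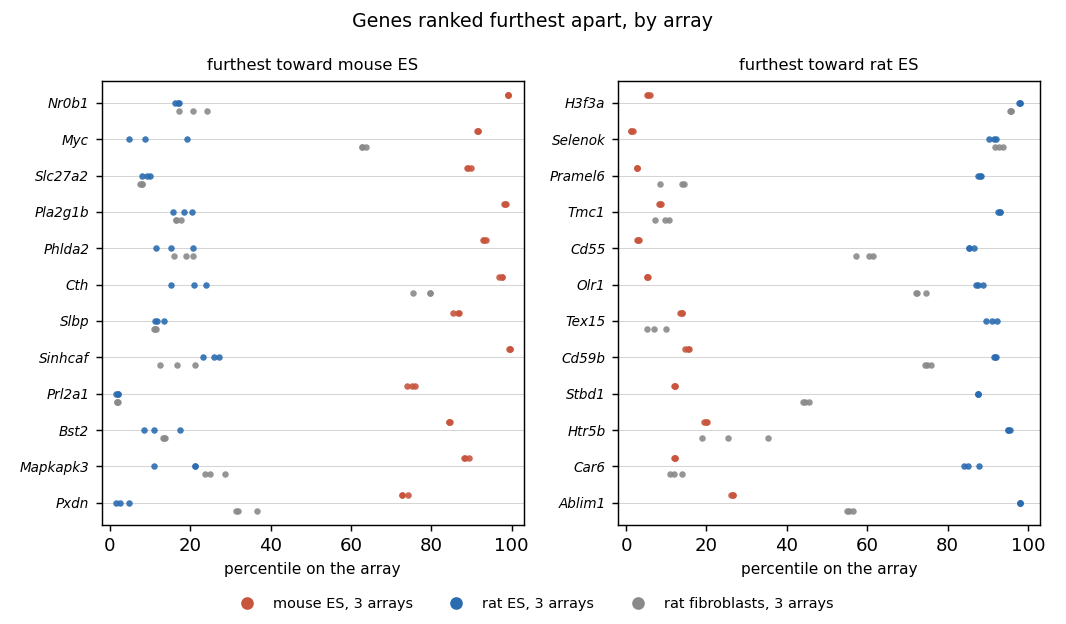
Percentile on each array of the 12 genes furthest toward mouse ES cells and the 12 furthest toward rat ES cells, with 3 points for each of the mouse ES, rat ES and rat fibroblast groups. In the left panel Myc, Cth and Pxdn rank higher in rat fibroblasts than in rat ES cells. In the right panel Pramel6, Tmc1, Tex15 and Car6 are at or below the 25th percentile in fibroblasts.

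The counted genes were also read in rat fibroblasts, on the same array design as the rat ES cells. Of the 535 genes ranked higher in mouse ES cells, 79 were at or above the 75th percentile in rat fibroblasts and 205 at or above the 50th, while 102 were at or below the 25th in both rat groups. Of the 609 genes ranked higher in rat ES cells, 130 were at or above the 75th percentile in both rat groups and 47 at or below the 25th in fibroblasts. By definition, about 25% of all shared genes lie at or above the 75th percentile of an array and about 50% above the 50th. About 25% lie at or below the 25th. The shares of all shared genes at these marks in both rat groups at once were not computed. The counting rule also put all 609 at or above the 50th percentile in rat ES cells. The counts of 102 and 130 are therefore not read as traits of these genes. Limma called 2996 of 14506 rat genes (20.7%) at an adjusted p under 0.05 and at least 2-fold. Of all these rat genes, 10.6% were higher in rat ES cells than in fibroblasts and 10.1% lower. Of the 535, 138 were lower in rat ES cells than in fibroblasts and 38 higher. Of the 609, 244 were higher in rat ES cells than in fibroblasts and 41 lower. By the percentile rule applied to the rat groups, 500 of all shared genes (4.13%) ranked higher in rat ES cells and 731 (6.03%) higher in fibroblasts, 10.2% in either direction. Both comparisons use the rat ES arrays, so these counts only stand side by side.

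Among genes ranked higher in mouse ES cells and at or above the 75th percentile in rat fibroblasts were Cth, Mid1, Dse, Rarg, Emb, Grb10, Anxa6 and Tinagl1, the 8 with the largest differences. Cth, the enzyme that makes cysteine from cystathionine, was at 97.6, 96.8 and 97.6 in mouse, 21.0, 15.3 and 24.0 in rat ES cells and 79.7, 79.8 and 75.5 in fibroblasts. Mid1, a microtubule-associated ubiquitin ligase, was at 86.7, 87.8 and 86.5 (a single mouse value), 27.9, 26.3 and 31.0 and 92.1, 92.7 and 91.8 in the same order. The retinoic acid receptor Rarg lay 56.7 points toward mouse (a single mouse value) and the membrane-binding annexin Anxa6 51.7 points. Tinagl1 also had a single mouse value. The choice of these 8 fixed that they were lower in rat ES cells than in fibroblasts, so that difference was not tested.

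Among genes ranked higher in rat ES cells and at or below the 25th percentile in rat fibroblasts, the 8 with the largest differences were Pramel6, Tmc1, Tex15, Car6, Slc15a1, Clic6, Adad1 and Tmem130. Tmc1, a channel subunit of inner-ear hair cells, was at 8.6, 8.4 and 8.2 in mouse, 93.0, 93.1 and 92.5 in rat ES cells and 10.7, 9.7 and 7.3 in fibroblasts. The peptide transporter Slc15a1 was at 15.2, 14.8 and 15.3, at 78.4, 80.5 and 81.4 and at 15.6, 17.2 and 17.1. Adad1, an RNA-binding gene of the testis, lay at -58.3 points and the chloride channel family gene Clic6 at -61.0. Here too the choice fixed the difference between the rat groups, which was not tested. Of the 8, only Tmc1 had more than 1 value on the mouse arrays.

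Germ cell and piRNA genes were spread on both sides. Of 29 shared members, 4 ranked higher in rat ES cells, 2 higher in mouse ES cells and 8 alike. For all shared genes the shares were 5.03%, 4.42% and 33.0%. The counts toward mouse and alike were close to those shares. Sohlh2, a helix-loop-helix factor of early germ cells, was at 41.6, 41.4 and 41.7 in mouse (a single mouse value) and 93.0, 93.5 and 93.1 in rat ES cells. The piRNA pathway genes Asz1 and Tdrkh lay at -51.4 and -45.1 points, the latter from a single mouse value. Toward mouse, the X-linked homeobox gene Rhox9 was at 88.0, 89.1 and 89.7 against 29.9, 28.2 and 21.0, and belongs to a multicopy cluster. Dnd1, which binds germ cell mRNAs, lay 26.7 points toward mouse from a single mouse value.

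Imprinted genes included several large differences. Of 24 shared members, 5 ranked higher in mouse ES cells, 2 higher in rat ES cells and 2 alike. For all shared genes these shares were 4.42%, 5.03% and 33.0%. The median absolute difference of the list was 16.5 points. Igf2, the fetal growth factor, was at 88.1, 88.6 and 87.8 in mouse and 36.2, 29.7 and 36.3 in rat ES cells. Grb10, an adaptor that damps insulin signalling, was at 95.4, 95.6 and 95.4 against 40.9, 47.6 and 42.5, with rat fibroblasts at 97.9 on every array. Cdkn1c, a cell cycle inhibitor, was at 93.7, 93.8 and 93.6 against 43.4, 43.8 and 45.6, and the amino acid transporter Slc38a4 lay 47.9 points toward mouse. Toward rat lay the zinc finger gene Plagl1 (-43.9 points) and Nnat (-32.3), a small membrane protein gene, both from single mouse values. The 5 genes toward mouse include both paternally and maternally expressed genes, since Igf2 is expressed from the paternal allele and Cdkn1c and Phlda2 from the maternal one.

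DNA methylation genes ranked alike in 8 of 15 members, against 33.0% of all shared genes. Dnmt1, the maintenance methyltransferase, Uhrf1, which brings it to replicated DNA, and Dnmt3l were all above the 95th percentile in both species and within 1 point. Besides Dnmt3a and Dnmt3b, Gadd45a, a stress gene also linked to demethylation, ranked 35.5 points toward mouse. Uhrf2, the paralogue of Uhrf1, was at 56.4, 53.5 and 56.3 in mouse and 89.1, 87.6 and 88.2 in rat ES cells.

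Epithelial junction and keratin genes ranked toward mouse in 8 of 26 shared members and toward rat in 1, with 7 alike. Those shares were 4.42%, 5.03% and 33.0% for all shared genes. The list median was 10.1 points. Esrp1, an epithelial splicing factor, was at 88.6, 89.6 and 88.6 in mouse and 28.5, 34.9 and 37.2 in rat ES cells. Krt8 was at 99.1, 99.2 and 99.0 against 70.8, 68.4 and 73.6, while its filament partner Krt18 ranked alike, 1.8 points apart. Krt7 lay 52.6 points toward mouse and the tight junction gene Cldn4 33.0 points. Against these, the tight junction gene Ocln was at 31.3, 30.9 and 31.5 in mouse (a single mouse value) and 80.9, 78.4 and 79.8 in rat ES cells. Cdh1, the adhesion molecule of epithelia and ES cells, was high in both, 7.4 points toward mouse.

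Primitive endoderm markers mark the extraembryonic lineage that can arise in ES cultures. Of 21 shared members, 6 ranked higher in mouse ES cells, none higher in rat and 4 alike. All shared genes had shares of 4.42%, 5.03% and 33.0%. The list median was 13.4 points (12.9 to 21.7 under the alternatives tried). The endocytic receptor Cubn was at 79.3, 80.6 and 81.2 in mouse and 14.5, 15.6 and 15.0 in rat ES cells, and its partner Lrp2 (megalin) lay 51.9 points toward mouse. The adaptor Dab2, which links such receptors to the coat, was at 77.9, 78.9 and 80.0 against 30.9, 26.0 and 34.3. Of the lineage transcription factors, Gata4 was at 59.0, 59.8 and 58.9 in mouse (a single mouse value) and 15.8, 22.7 and 15.2 in rat ES cells. Sox17 ran the other way, at 17.0, 18.5 and 15.4 in mouse and 34.6, 31.3 and 27.9 in rat ES cells, below the counting limit. Over the 6 defining markers, the median was 48.9 in mouse and 30.8 in rat ES cells, and 1 of them in mouse and none in rat was at or above the 75th percentile. Whether other cells in the mouse cultures contributed to these ranks was not tested.

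Trophoblast markers went both ways. Of 15 shared members, 5 ranked toward mouse, 2 toward rat and 4 alike, against 4.42%, 5.03% and 33.0% of all shared genes. Plet1, a surface marker of trophoblast progenitors, was at 85.0, 84.5 and 85.3 in mouse and 42.9, 44.4 and 41.5 in rat ES cells, and the placental gene Plac1 lay 62.2 points toward mouse from a single mouse value. Toward rat lay Cdx2 and Tfap2a (-44.7 points), both regulators of trophoblast and both single mouse values. Over the 5 defining markers the medians were close, at 41.6 in mouse and 41.1 in rat ES cells.

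Fibrillar collagen and matrix genes ranked toward rat, with a median of -12.8 points over 26 shared members. Of these, 5 ranked higher in rat ES cells, 3 higher in mouse ES cells and 3 alike. The shares of all shared genes were 5.03%, 4.42% and 33.0%. With percentiles among all named genes the list median was -7.2 points. Col1a1, the chain of type I collagen, was at 68.2, 69.5 and 68.0 in mouse (a single mouse value) and 93.4, 95.9 and 97.2 in rat ES cells, and Col3a1 was at 45.6, 45.8 and 45.7 (a single mouse value) against 72.2, 76.3 and 80.1. Postn, a matrix protein of fibroblasts, belongs to the fibroblast and feeder list and not to the matrix list. It was at 4.9, 4.7 and 4.9 in mouse (a single mouse value) and 60.3, 69.7 and 76.1 in rat ES cells. All 3 were near 100 in rat fibroblasts. In the other direction, the matricellular genes Ccn1, Thbs1 and Ccn2 lay 33.4, 30.0 and 25.7 points toward mouse. Of the 27 genes of the wider fibroblast and feeder list, 2 ranked higher in rat ES cells, 1 higher in mouse ES cells and 9 alike, close to the shares of all shared genes (5.03%, 4.42% and 33.0%), and the list median of -3.3 points became 0.3 with percentiles among all named genes. Of the 14 defining fibroblast markers, 4 in rat ES cells and 1 in mouse ES cells were at or above the 75th percentile. Feeder removal is stated for the mouse cultures alone, and the part of residual feeder RNA in these ranks was not tested.

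Hox genes, which pattern the body axis and are silent in the early embryo, were counted toward rat in 4 of 21 shared members and toward mouse in none, against 5.03% and 4.42% of all shared genes. Hoxa5 was at 4.5, 4.4 and 4.6 in mouse and 57.5, 60.5 and 65.2 in rat ES cells, and Hoxa7 at 28.4, 28.2 and 27.6 against 68.4, 68.8 and 68.5. Hoxa11 and Hoxb4 lay at -43.6 and -33.4 points. All except Hoxa7 had a single mouse value, and the list median of -5.5 points turned to 2.5 among genes with at least 2 different mouse values. Hoxa5, Hoxa7 and Hoxa11 form a run of 3 neighbouring shared genes in the rat genome.

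Genes of basic cell machinery mostly ranked alike. Of 51 shared cytosolic ribosomal protein genes, 43 (against 33.0% of all shared genes) ranked alike, none higher in mouse and 1, Rplp2, higher in rat ES cells, with a median absolute difference of 0.8 points. Proteasome subunits (24 of 36 alike), chaperones and heat shock genes (24 of 33) and glycolysis genes (15 of 23) followed, with median absolute differences of 3.7, 1.7 and 2.4 points. All 4 lists had median percentiles above 90 in both species, which leaves little room for a difference. The glucose transporters Slc2a1 and Slc2a3 and the lactate dehydrogenase gene Ldha were above the 99th percentile on all 6 ES arrays. Exceptions were the glycolytic regulator Pfkfb3, at 38.5, 38.1 and 38.6 in mouse (a single mouse value) and 80.2, 81.7 and 84.3 in rat ES cells, and the small heat shock gene Hspb1, 30.5 points toward mouse.

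Oxidative phosphorylation subunits (19 of 55 alike) and cholesterol synthesis genes (7 of 23) were close to the share of all genes. In the respiratory chain, Ndufa10, a subunit of complex I, was at 97.7, 98.0 and 97.7 in mouse (a single mouse value) and 44.7, 41.1 and 41.9 in rat ES cells, but a rat probe set that lists Ndufa10 together with other symbols ranked at 92.4 in rat ES cells, so its place hangs on which rat probe set is used. Ndufb2 and Ndufb3 of the same complex lay at -46.8 (a single mouse value) and -47.0 points. Cholesterol genes had a median of -7.3 points. It was -2.7 with percentiles among all named genes and -17.6 among genes with 3 different mouse values. The mouse mean was the higher in 13.0% of the cholesterol genes, against 51.4% of all shared genes. That share was not taken again with percentiles among all named genes. The counted member was the sterol demethylase Cyp51, at 66.7, 64.9 and 70.1 in mouse and 97.1, 97.6 and 97.7 in rat ES cells.

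Symbol families, defined by the letters before the first digit, gave 200 families with at least 8 shared genes and 3860 genes in all. The Cep family of centrosomal proteins lay furthest toward rat, with a median of -20.5 points over 21 genes. Of these, 6 ranked higher in rat ES cells and none higher in mouse, against 5.03% and 4.42% of all shared genes. Cep70 was at 20.5, 20.0 and 20.7 in mouse (a single mouse value) and 65.4, 63.4 and 65.5 in rat ES cells, with rat fibroblasts at 12.0, 13.0 and 10.7. The Cep median stayed between -24.4 and -14.4 points under each alternative tried. Mfsd transporters (-11.7), Stard lipid-transfer genes (-11.0), Smim membrane proteins (-10.7) and Commd genes (-8.8) followed. With percentiles among all named genes these 4 medians were -6.2, -5.6, -5.6 and -4.3, and among genes with at least 2 different mouse values the Commd median was -22.4.

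Toward mouse lay the Nkx homeobox genes (13.4), the Arhgef exchange factors (12.7), the Sox factors (12.4), the Rtn reticulons (11.7) and the Spag sperm-associated genes (11.4). The Arhgef and Rtn medians turned to -9.9 and -4.2 among genes with at least 2 different mouse values, and the Nkx and Sox medians to -0.1 and -8.6 among genes with 3 different values. Most alike were the Rpl, Rps, Cct, Prl and Slco families, with median absolute differences of 1.1 to 2.2 points. For Slco the value was 23.6 points over the 4 genes left without those under the 25th percentile in all 3 groups, and 10.1 points among genes with at least 2 different mouse values. The first 3 of these lay near the top of the range, while the placental prolactins and the organic anion transporters lay near the bottom, with median percentiles between 1.3 and 8.5 in both species.

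Runs of 3 neighbouring shared genes ranked higher in the same group were few. Toward mouse they were Clip3, Alkbh6 and Syne4, then Abhd11, Cldn3 and Cldn4, then Dbi, Steap3 and C1ql2, and the glutathione transferases Gstm3, Gstm2 and Gstm1, whose similar sequences can share probes. Of these, Clip3, Alkbh6, Abhd11, Dbi, Gstm3 and Gstm1 had a single mouse value. Toward rat the run of Hoxa genes given above was the only one.

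**Figure D5:**
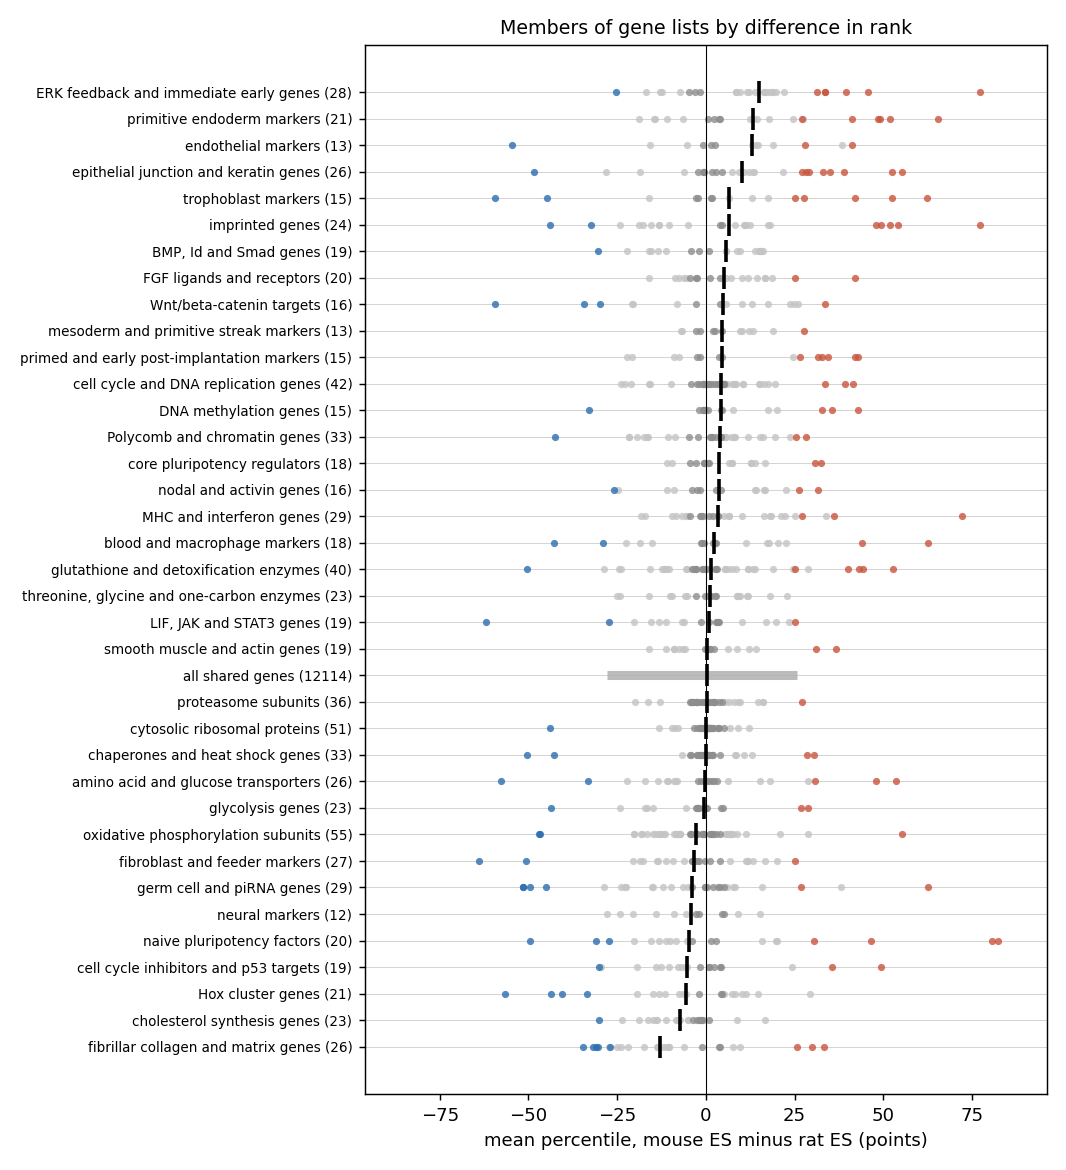
Difference in mean percentile, mouse ES minus rat ES, for each shared member of the gene lists with at least 12 shared genes, 1 list per line with its number of genes. Red points are members counted as ranked higher in mouse ES cells, blue points those higher in rat ES cells, dark grey points those within 5 points and light grey points the others, and black bars are medians. The grey band for all shared genes spans from the 5th to the 95th percentile of their differences. ERK targets have the highest median, at 15.1 points, and matrix genes the lowest, at -12.8.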

How the data were processed

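RNA from 9 samples was measured on gene expression arrays of 2 designs, 1 for mouse and 1 for rat. The deposited tables hold a log2 value per probe set, a scale read from the values themselves, since how the authors normalized them is not given in the sources used here. A gene is a probe set with 1 platform symbol, and the probe set with the highest mean was kept. Symbols were matched regardless of case. Percentiles were the place of a gene among the shared genes of its array. The number of arrays limits the precision. Tests within the rat table used limma (version 3.58.1, under R 4.3.3) and Benjamini-Hochberg adjustment over all named rat genes. Named genes were the furthest and most alike of all shared genes and of 38 lists, every core and naive pluripotency gene, and the furthest families. Other genes were chosen after their values were seen, among them Egr1, Jun, the Dusp, Spry and Etv genes, Sfrp2, Zic2, Lef1, Notum, Dkk1, Lgr5, Dnmt1, Socs3, Krt18, Cldn4, Dab2, Gata4, Sox17, Tdrkh, Hoxb4, Col1a1 and Col3a1. The members and lists were chosen with earlier results of these data known. The scripts were tested on simulated data. Left out were probe sets with no symbol or several.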

Additional observations from a re-analysis of the deposited data

How the results depend on the processing

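Direction held under the other probe set, filter and percentile choices for the 138 named genes counted as ranked higher in either group, and for the 34 and 69 of them with 3 and with at least 2 different mouse values, while 123 of the 138 were still at least 25 points apart with percentiles among all named genes of each table. That choice gave 718 genes higher in mouse and 390 in rat ES cells. Without genes under the 25th percentile in all 3 groups, mean rho was 0.759, and as Pearson's r it was 0.838. Limits of 15 and 40 points gave 1231 and 161 genes toward mouse and 1242 and 208 toward rat, and limits of 2.5 and 10 points gave 2196 and 6665 genes alike. With values mapped by rank to a common distribution and a 2-fold limit, 1327 and 1368 genes were counted. With percentiles taken among them alone, genes with 3 different mouse values had a rho of 0.789 and 156, 157 and 679 genes toward mouse, toward rat and alike. Genes with at least 2 different values, an alternative chosen after seeing the data, gave 267, 296 and 1926, and fewer genes were then tested. The cause of the other changes was not tested. Leaving out an array gave a rho of 0.832 to 0.837, a difference of 0.084 to 0.085, 525 to 551 genes toward mouse, 593 to 624 toward rat, 3960 to 4030 alike and 2994 to 3035 limma calls. With the replicate number as a block limma called 2996 genes, as without it, and same-numbered rat samples did not deviate together (r of -0.00044, 0.031 and -0.000296), so the numbers were not used as pairs. Mouse values shared between genes limit how finely mouse genes can be ordered.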

Other observations

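Cell cycle and DNA replication genes ranked alike in 19 of 42 shared members, with 3 ranked higher in mouse ES cells and none in rat. Over all shared genes these shares were 33.0%, 4.42% and 5.03%. Cdk6, a kinase of the G1 phase, was at 75.8, 75.2 and 76.1 in mouse, 34.7, 29.4 and 38.7 in rat ES cells and 88.2, 86.3 and 87.2 in rat fibroblasts. Its paralogue Cdk4 was at 99.6 on each mouse array and 99.7 on each rat ES array. Tk1, the thymidine kinase of S phase, lay 39.1 points toward mouse from a single mouse value. Rb1, the retinoblastoma gene that restrains entry into S phase, belongs to the separate list of cell cycle inhibitors and p53 targets. Its percentiles were 45.9, 39.9 and 46.0 in mouse and 74.3, 75.7 and 72.3 in rat ES cells.

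In the Polycomb and chromatin list, 2 of 33 shared genes ranked higher in mouse ES cells, 1 higher in rat and 10 alike, close to the shares of all shared genes (4.42%, 5.03% and 33.0%). Cbx7, the chromobox subunit of Polycomb repressive complex 1, was at 94.3, 94.8 and 94.2 in mouse (a single mouse value) and 68.4, 67.7 and 70.5 in rat ES cells. Bmi1, another subunit of that complex, was at 30.0, 30.0 and 30.1 in mouse and 77.8, 69.3 and 70.5 in rat ES cells. Of 40 detoxification genes, 5 ranked higher in mouse and 1 in rat, against 4.42% and 5.03% of all shared genes. Aldh2, the mitochondrial aldehyde dehydrogenase, lay 43.1 points toward mouse from a single mouse value, and Nqo1, a quinone reductase, was at 52.1, 39.4 and 50.4 in mouse and 97.9, 97.3 and 97.5 in rat ES cells. Outside the detoxification list, Slc1a1, a glutamate and cysteine transporter, lay at -57.8 points. Also outside it, the stress factor Ddit3 lay at -42.9 points from a single mouse value that other genes share.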
